A study of Bos taurus with 9 samples.

Results

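Transcripts of 10 genes that make or restrain matrix-degrading metalloproteinases were followed in cultured bovine endometrial cells described as epithelial. The genes were chosen by symbol from a table of 30641 genes: the matrix metalloproteinases MMP1, MMP2, MMP3, MMP9, MMP14 and MMP19, the tissue inhibitors TIMP1, TIMP2 and TIMP3, and the secreted protease ADAMTS1. All 10 were listed in the table, and 7 of them had enough reads to be tested between groups, among 14874 tested genes. MMP1, MMP3 and MMP9 did not. RNA was sequenced in 9 libraries, 3 in each of 3 groups. In the DPPA3 mRNA group, 500 ng of in vitro transcribed DPPA3 mRNA was delivered by the reagent jetMESSENGER 24 hours after the cells were seeded. The reagent alone group was given jetMESSENGER at that time point with no mRNA in it, and the untreated control group was given neither reagent nor mRNA. No group received another mRNA, so effects of the DPPA3 sequence and of transfected mRNA as such cannot be told apart. Nothing in the labels ties the replicates to separate cultures or animals. The p-values therefore rest on the variation among these libraries alone, which may be technical.

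Matrix metalloproteinases are zinc enzymes that are made as inactive precursors and cut collagens and other matrix proteins once their propeptide is removed. TIMP proteins block the active site, so the balance of enzyme and inhibitor sets how much matrix is degraded. TIMP2 has a further role: bound to MMP14 at the cell membrane, it holds the MMP2 precursor in place for activation. In the endometrium these genes take part in the remodelling of the tissue over the cycle and around implantation.

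Total counts ranged from 11070923 to 13258036 in the DPPA3 mRNA libraries, from 3890134 to 12092771 with reagent alone and from 7258348 to 10130619 in the untreated controls. DPPA3 had 126334, 213790 and 213192 counts in the transfected libraries, against 0 in each reagent alone library and 0, 2 and 1 in the untreated controls, so the labels fit the transfected gene. Untreated control replicate 1 stood apart: the gene LOC112442408 took 11% of its counts, against 3.05% to 4.36% in the other 8 libraries. Results that rest on that library are given with and without it. The keratins KRT8, KRT18 and KRT19, markers of simple epithelia, ranged from 1560 to 4990 CPM (reads per 1000000 of the scaled library) over the 9 libraries. Of the other epithelial markers, KRT7 was at 421 to 574 CPM and CDH1 at 37.6 to 58.7 CPM. EPCAM, MUC1 and CLDN4 did not exceed 0.782, 3.87 and 1.93 CPM in any library. Collagens that mark stromal cells were abundant, with COL1A1 at 8080 to 18900 CPM, and carried most of the summed stromal list. Of the other stromal markers, VIM was at 1320 to 1720 CPM, DCN at 89.3 to 260 CPM, LUM at 21.1 to 59.8 CPM, PDGFRA at 26.9 to 44.6 CPM, PDGFRB at 6.41 to 17.2 CPM and THY1 at 0.181 to 1.29 CPM. The summed stromal marker list was 29460 to 34660 CPM after DPPA3 mRNA, 27910 to 35990 CPM after reagent alone and 30400 to 46370 CPM in untreated controls, where replicate 1 held the 46370 CPM and the other two 34190 and 30400 CPM. Of 7 immune markers, PTPRC and ITGAM had 0 counts in all 9 libraries, CD3E and LYZ had 5 and 2 counts in all, and CD14, CD68 and CSF1R were detected in each library, at no more than 5.74, 2.98 and 2.21 CPM. Markers of epithelial and of stromal cells were both read, and whether all the cells were epithelial was not tested. In such bulk RNA, fewer cells of a type and less RNA per cell cannot be told apart.

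No change with DPPA3 mRNA relative to reagent alone passed the test in any of the 7 genes. With Benjamini-Hochberg adjustment of edgeR's quasi-likelihood test over all genes tested, 0 of 7 passed an adjusted p of 0.05, as against 0.00672% of all tested genes, which was DPPA3 itself. Before adjustment, 0 of the 7 had a p under 0.05, as against 1.67% of all tested genes. DESeq2 also called 0 of the 7. On average 4 of 7 were higher after DPPA3 mRNA, as were 50.4% of all tested genes. The 95% intervals of the 7 fold changes ran from 0.693-fold at the lowest, for TIMP3, to 1.42-fold at the highest, for TIMP2. In 0 of 7 did the transfected libraries all lie above the reagent alone ones (4.91% of all tested genes) or all below (3.99%). The plot of levels by library shows the 3 groups overlapping for every tested member.

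**Figure D1:**
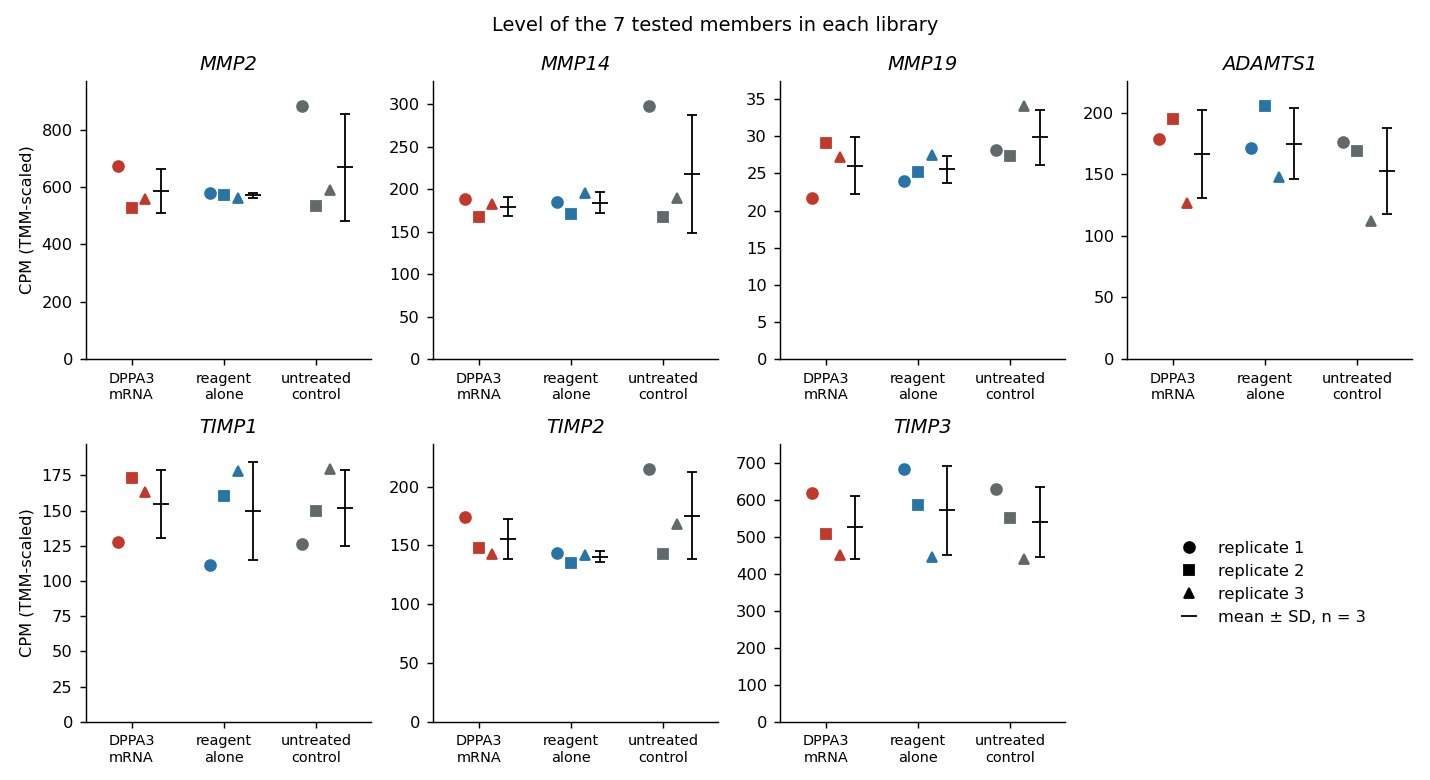
Level of the 7 tested members in each library, in CPM on TMM-scaled library sizes, with 1 point per library, its replicate number shown by the symbol, and the group mean with SD (n = 3) beside the points. For each gene the points of the DPPA3 mRNA group overlap those of both other groups, and untreated control replicate 1 is the highest library for MMP2 (881 CPM), MMP14 (298 CPM) and TIMP2 (215 CPM).

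MMP2 encodes gelatinase A, which degrades basement membrane collagen. Its level was 674, 528 and 558 CPM in DPPA3 mRNA replicates 1, 2 and 3, 578, 573 and 561 CPM in reagent alone replicates 1, 2 and 3, and 881, 535 and 590 CPM in untreated control replicates 1, 2 and 3. The reagent alone libraries lay inside the range of the transfected ones, and only untreated control replicate 1 exceeded both. The group means were 587 ± 77.0 CPM after DPPA3 mRNA, 571 ± 8.84 CPM after reagent alone and 669 ± 186 CPM in untreated controls (SD, n = 3 each). The log2 fold change of MMP2 with DPPA3 mRNA over reagent alone was 0.04 (SE 0.18, 95% interval -0.35 to 0.43, edgeR adjusted p = 1).

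MMP14 encodes the membrane-bound activator of MMP2. Its levels were 188, 168 and 183 CPM after DPPA3 mRNA, 185, 171 and 196 CPM after reagent alone, and 298, 167 and 190 CPM in untreated controls, in replicates 1, 2 and 3 of each group. Again 8 libraries lay close together and untreated control replicate 1 lay above them. The log2 fold change of MMP14 over reagent alone was -0.04 (SE 0.19, 95% interval -0.45 to 0.38, edgeR adjusted p = 1). MMP19, a secreted MMP, measured 21.7, 29.1 and 27.3 CPM after DPPA3 mRNA, 23.9, 25.2 and 27.5 CPM after reagent alone, and 28.2, 27.3 and 34.0 CPM in untreated controls. The transfected libraries covered the whole range of the reagent alone ones. The log2 fold change of MMP19 over reagent alone was 0.02 (SE 0.19, edgeR adjusted p = 1).

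ADAMTS1 is a secreted protease that cleaves the proteoglycans versican and aggrecan, and in mice it is needed for normal ovulation. It measured 179, 195 and 127 CPM after DPPA3 mRNA, 172, 205 and 148 CPM after reagent alone, and 176, 169 and 113 CPM in untreated controls. In each group replicate 3 was the lowest library, and the 3 groups overlapped. The log2 fold change of ADAMTS1 over reagent alone was -0.07 (SE 0.21, edgeR adjusted p = 1).

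Among the inhibitors, TIMP1, which blocks most secreted MMPs but MMP14 poorly, measured 128, 173 and 163 CPM after DPPA3 mRNA, 111, 160.5 and 178 CPM after reagent alone, and 126, 150 and 180 CPM in untreated controls. Replicate 1 was the lowest library of each group, and the group means of 155 ± 23.9, 150 ± 34.7 and 152 ± 26.7 CPM (SD, n = 3 each) differed by less than the spread within a group. TIMP2 measured 174.5, 148 and 143 CPM after DPPA3 mRNA, 144, 135 and 142 CPM after reagent alone, and 215, 142 and 168.5 CPM in untreated controls. Its log2 fold change over reagent alone, 0.15 (SE 0.17, 95% interval -0.21 to 0.50, edgeR adjusted p = 1), was the largest in size of the 7 in this comparison. The reagent alone libraries were the 3 that varied least, between 135 and 144 CPM.

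TIMP3 is held in the matrix and also inhibits proteases of the ADAM and ADAMTS families. Its level was 618.5, 508 and 449 CPM in DPPA3 mRNA replicates 1, 2 and 3, 683, 584 and 445 CPM in reagent alone replicates 1, 2 and 3, and 629, 549 and 439 CPM in untreated control replicates 1, 2 and 3. Replicate 1 was the highest and replicate 3 the lowest in each of the 3 groups. The log2 fold change of TIMP3 over reagent alone was -0.12 (SE 0.19, 95% interval -0.53 to 0.29, edgeR adjusted p = 1).

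DPPA3 mRNA against untreated control measured reagent and mRNA together, and 0 of the 7 genes passed (0.0134% of all tested genes did, which were 2 genes, or 7 genes in a fit blocked on replicate number). Before adjustment 0 of the 7 had a p under 0.05, as against 3.91%, and DESeq2 called 0 of the 7. Their median log2 fold change was -0.17, beside 0.00 for all tested genes, and 2 of 7 were higher on average, as against 50.2% of all tested genes. In 0 of 7 did the transfected libraries all lie above the untreated ones (4.24% of all tested genes) or all below (3.86%). MMP14 had the largest log2 fold change in size, with 180 ± 10.7 CPM after DPPA3 mRNA and 218 ± 69.7 CPM in untreated controls (SD, n = 3 each). Its log2 fold change was -0.28 (SE 0.19, 95% interval -0.70 to 0.14, edgeR adjusted p = 0.852). The sign rested on 1 library: without untreated control replicate 1 the MMP14 value was 0.02, that of MMP2 was 0.07 instead of -0.19, and that of TIMP2 was 0.01 instead of -0.17. The median of the 7 was then 0.02, and 5 of 7 were higher.

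The reagent's own background was measured by reagent alone against untreated control, and again 0 of the 7 passed (0% of all tested genes did). DESeq2 also called 0 of the 7. Without adjustment 0 of the 7 had a p under 0.05, as against 10.2% of all tested genes. On average 2 of 7 were higher after reagent alone, as against 49.2%, and in 0 of 7 did its libraries all lie above (6.92%) or all below (7.21%) the untreated ones. Without untreated control replicate 1, 4 of 7 were higher, and the median log2 fold change was 0.03 in place of -0.22. TIMP2 had the smallest p of the 7, at 140 ± 4.79 CPM after reagent alone and 175 ± 36.8 CPM in untreated controls (SD, n = 3 each). Its log2 fold change was -0.32 (SE 0.17, 95% interval -0.68 to 0.04, edgeR adjusted p = 0.467), and -0.14 without untreated control replicate 1. MMP2 and MMP14 had log2 fold changes of -0.23 and -0.24, which became 0.03 and 0.06 without that library. This comparison and the preceding one share the untreated control libraries.

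**Figure D2:**
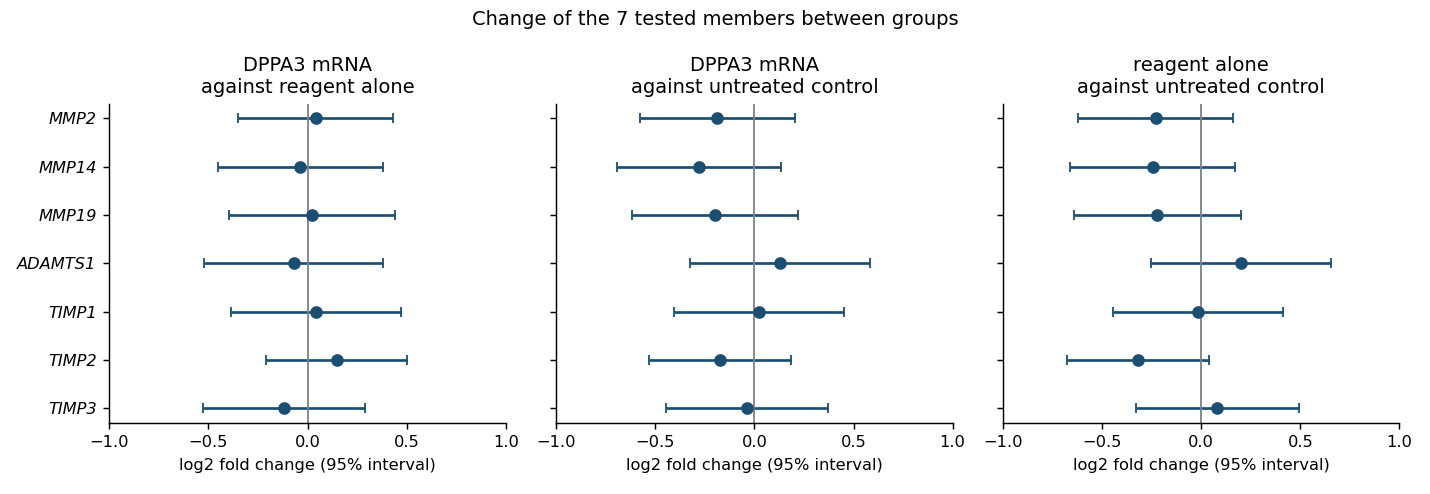
Log2 fold changes of the 7 tested members in the 3 comparisons (edgeR), with bars for 95% intervals. Each of the 21 intervals includes 0, and in the 2 comparisons with untreated control MMP2, MMP14, MMP19 and TIMP2 sit below 0. In fits without untreated control replicate 1, which are not drawn, MMP2 and MMP14 are above 0 in both, and TIMP2 in the DPPA3 mRNA comparison.

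In the order of group means, untreated control came first for MMP2, MMP14, MMP19 and TIMP2, reagent alone for TIMP3 and ADAMTS1, and DPPA3 mRNA for TIMP1. The first place for MMP2 and MMP14 rested on untreated control replicate 1. Without it, their log2 fold changes over untreated control were 0.07 and 0.02 with DPPA3 mRNA and 0.03 and 0.06 with reagent alone. For TIMP2 the values were then 0.01 with DPPA3 mRNA and -0.14 with reagent alone. For each of these 7 genes both gaps between neighbouring group means were smaller than the larger SD of the 2 groups. MMP19 came closest, with a gap of 3.82 CPM between DPPA3 mRNA and untreated control and an SD of 3.84 CPM. Its first and last groups lay farther apart than either SD, at 25.6 ± 1.81 CPM after reagent alone and 29.8 ± 3.66 CPM in untreated controls, but their libraries overlapped and the test did not pass (edgeR adjusted p = 0.609).

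MMP1, MMP3 and MMP9 were at or near the limit of detection. MMP1, the interstitial collagenase, had 1 count in DPPA3 mRNA replicate 3, 1 count in reagent alone replicate 2 and 0 counts in the other 7 libraries. MMP9, gelatinase B, had 3, 1 and 0 counts with DPPA3 mRNA, 0, 0 and 1 with reagent alone and 0 in each untreated control. MMP3, stromelysin 1, had 0 counts in all 9 libraries. A count of 0 allows up to 3 counts, which is 0.226 to 0.271 CPM in the DPPA3 mRNA libraries, 0.236 to 0.747 CPM after reagent alone and 0.293 to 0.483 CPM in untreated controls. These limits cover counting error only. A change in these 3 genes below such levels was not detectable at this depth, and no fold is given.

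MMP1 and MMP3 belong to a run of neighbouring MMP genes in the RefSeq annotation of ARS-UCD2.0, and few reads came from the whole run. Its 8 MMP genes, MMP13, MMP12, MMP3, MMP1, MMP8, MMP27, MMP20 and MMP7, had 34 counts in all over the 9 libraries, of which 30 were of MMP7 and 4 genes had 0. The genes beside the run were read in these cells, with 1472 counts for DCUN1D5 on one side and 4560 counts for TMEM123 on the other. MMP2, MMP14, MMP19 and MMP9 lie outside this run.

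The overlap of other genes limits some of these values, since whether counting used strand is not given in the sources used here. By the spans of the same annotation, MMP14 overlaps RBM23, TIMP1 overlaps SYN1, TIMP2 overlaps CEP295NL and TIMP3 overlaps SYN3. Over the 9 libraries these neighbours had 6103, 600, 1390 and 118 counts, beside 16973 for MMP14, 14030 for TIMP1, 13898 for TIMP2 and 47486 for TIMP3. No other gene of that annotation overlapped MMP1, MMP3, MMP9, MMP19 or ADAMTS1, and the tRNA gene that overlaps MMP2 had 0 counts. Counted symbols without a match in the annotation could not be placed.

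The libraries were also compared by replicate number. The labels number the replicates 1 to 3 in every group and do not say what a number marks. A test of the number over all 9 libraries, with group in the same edgeR fit, called 219 genes, 1.47% of those tested, and 0 of the 7 members. The count of genes was 35 without DPPA3 mRNA replicate 1 and 960 without reagent alone replicate 1. Before adjustment 4 of 7 members had a p under 0.05 (TIMP3, ADAMTS1, TIMP1 and MMP2), as against 19.8% of all tested genes. TIMP3, ADAMTS1 and TIMP1 came close, with edgeR adjusted p of 0.0562, 0.0644 and 0.0836. The call on these genes depended on single libraries and on the tool. TIMP3, ADAMTS1 and TIMP1 all passed without untreated control replicate 1 (edgeR adjusted p 0.00765, 0.00546 and 0.0258) and with DESeq2 (adjusted p 0.002, 0.00559 and 0.0208). More genes in all were called there too, 660 without that library and 1060 with DESeq2. Without reagent alone replicate 1, the shallowest library, TIMP3, ADAMTS1 and MMP2 passed (edgeR adjusted p 0.0416, 0.0214 and 0.0477), among the 960 genes. When other single libraries were left out, the edgeR adjusted p of TIMP3, ADAMTS1 and TIMP1 reached 0.229, 0.285 and 0.252 at the highest.

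Set against the mean of their group, the libraries numbered 1, 2 and 3 averaged 0.26, 0.02 and -0.28 for TIMP3 on the log2 CPM scale, -0.31, 0.10 and 0.21 for TIMP1, and 0.12, 0.22 and -0.34 for ADAMTS1. TIMP3 was thus high, and TIMP1 low, in the libraries numbered 1. Number 3 held the lowest ADAMTS1 library of each group. The same number was highest in all 3 groups for 3 of the 7 members (MMP2, TIMP2 and TIMP3), as against 26% of all tested genes, and lowest in all 3 for 4 of 7, as against 23.6%. Both held for TIMP3 alone of the 7, as for 9.88% of all tested genes. The libraries numbered 1 include the deepest and the shallowest of the 9, replicate 1 of the DPPA3 mRNA group and replicate 1 of the reagent alone group, and TIMP1 was at 128 and 111 CPM in them. The part of depth in these levels was not tested.

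**Figure D3:**
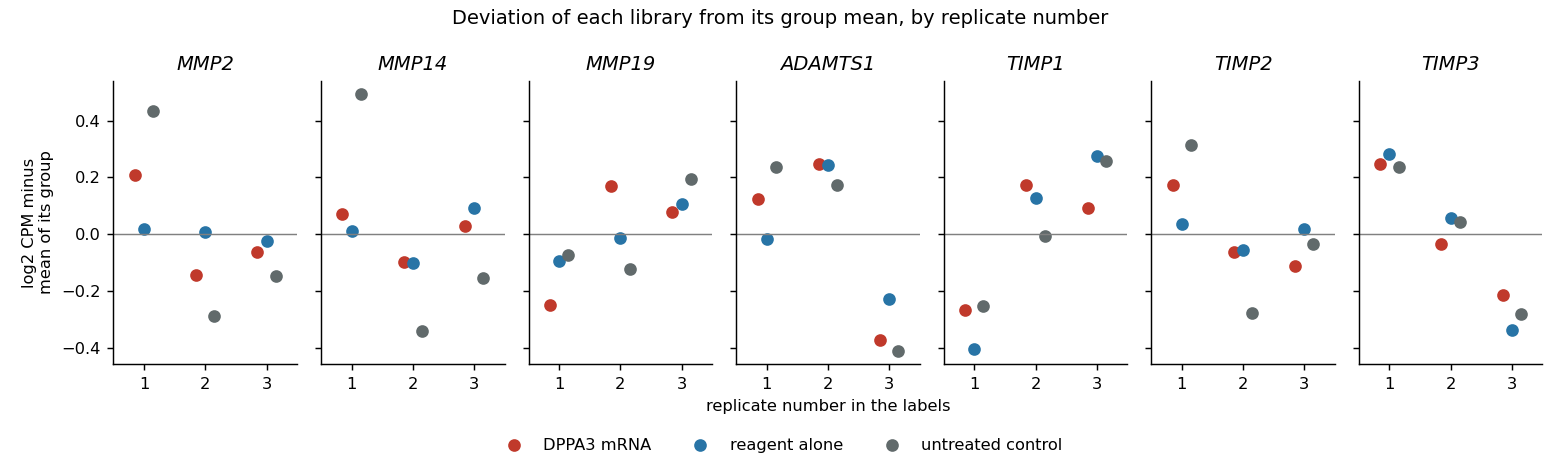
Log2 CPM of each library minus the mean of its group (y axis) by replicate number (x axis) for the 7 tested members, 1 point per library, coloured by group. TIMP3 points are above 0 at number 1 and below 0 at number 3 in all 3 groups, TIMP1 points are below 0 at number 1, and ADAMTS1 points are below 0 at number 3.

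Of 4 smooth muscle markers, ACTA2 and DES passed the test of the number (edgeR adjusted p 0.00451 and 0.0162), as did 1.47% of all tested genes. CNN1 and MYH11 did not (edgeR adjusted p 0.179 and 0.776), and MYH11 was lowest on average at number 1. The summed level of the 4 listed (ACTA2, MYH11, DES and CNN1) was 810 to 912 CPM in the libraries numbered 1, 524 to 558 CPM in those numbered 2 and 425 to 540 CPM in those numbered 3, most of it ACTA2 at 355 to 802 CPM. None of the 4 was at 0 in any library. When single libraries were left out the adjusted p of ACTA2 and DES reached 0.0705 and 0.136 at the highest. The summed epithelial markers were 8587 to 11050, 8621 to 8928 and 8941 to 9392 CPM for numbers 1, 2 and 3. The part of these markers in the levels of TIMP3, TIMP1 and ADAMTS1 was not tested.

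Ratios of read counts within a library do not depend on how libraries are scaled, although they are not ratios of transcript numbers. The ratio of MMP2 to TIMP2 counts was 3.86, 3.56 and 3.9 with DPPA3 mRNA, 4.02, 4.25 and 3.95 with reagent alone, and 4.1, 3.76 and 3.5 in untreated cells. It lay between 3.5 and 4.25 in the 9 libraries, untreated control replicate 1 included, while the level varied 1.67-fold for MMP2 and 1.59-fold for TIMP2. The width of the level ranges rested largely on that library. Without it the levels were 528 to 674 CPM for MMP2 and 135 to 174.5 CPM for TIMP2, and the ratio range was unchanged. The ratio of MMP14 to TIMP2 counts was 1.08, 1.13 and 1.28 with DPPA3 mRNA, 1.29, 1.27 and 1.38 with reagent alone, and 1.38, 1.17 and 1.13 in untreated cells. The ratio of MMP2 to TIMP1 was 5.28, 5.21 and 6.98 in replicate 1 of the DPPA3 mRNA, reagent alone and untreated control groups, and 3.05 to 3.57 in the other 6 libraries. Replicate 1 was thus the highest for this ratio in each group.

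**Figure D4:**
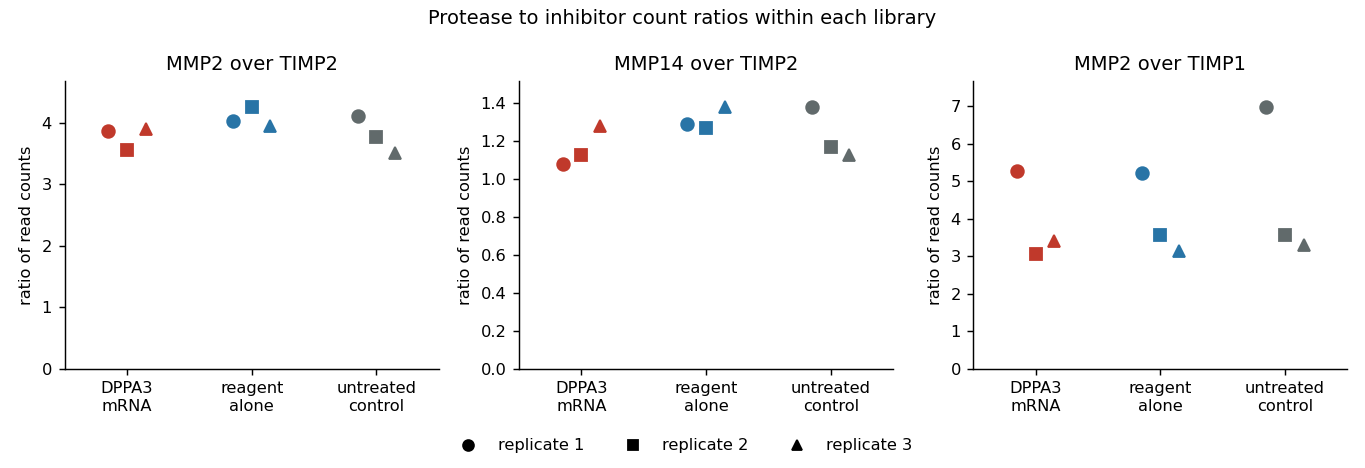
Ratio of read counts of 2 genes within each library (y axis, from 0) by group (x axis), 1 point per library, with the replicate number shown by the symbol. The ratio of MMP2 to TIMP2 lies between 3.5 and 4.25 in all 9 libraries, and the ratio of MMP2 to TIMP1 is highest in replicate 1 of each group.

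Some pairs of members varied together or inversely across the 9 libraries. These correlations describe libraries that share replicate numbers, so no p is given. Of the 21 pairs of tested members, TIMP1 and TIMP3 had the strongest inverse relation in log2 CPM (Pearson r = -0.904, Spearman rho = -0.967, n = 9). It was -0.818 without the 2 libraries farthest from the median of TIMP1, and -0.89 without untreated control replicate 1. MMP2 and MMP14 had r = 0.928 and rho = 0.767, and MMP2 and TIMP2 had r = 0.92 and rho = 0.60. These 2 relations rested on few libraries: without DPPA3 mRNA replicate 1 and untreated control replicate 1, the farthest from the median of MMP2, r was 0.662 and 0.326. With untreated control replicate 1 alone left out, r was 0.554 for MMP2 and MMP14 and 0.725 for MMP2 and TIMP2.

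**Figure D5:**
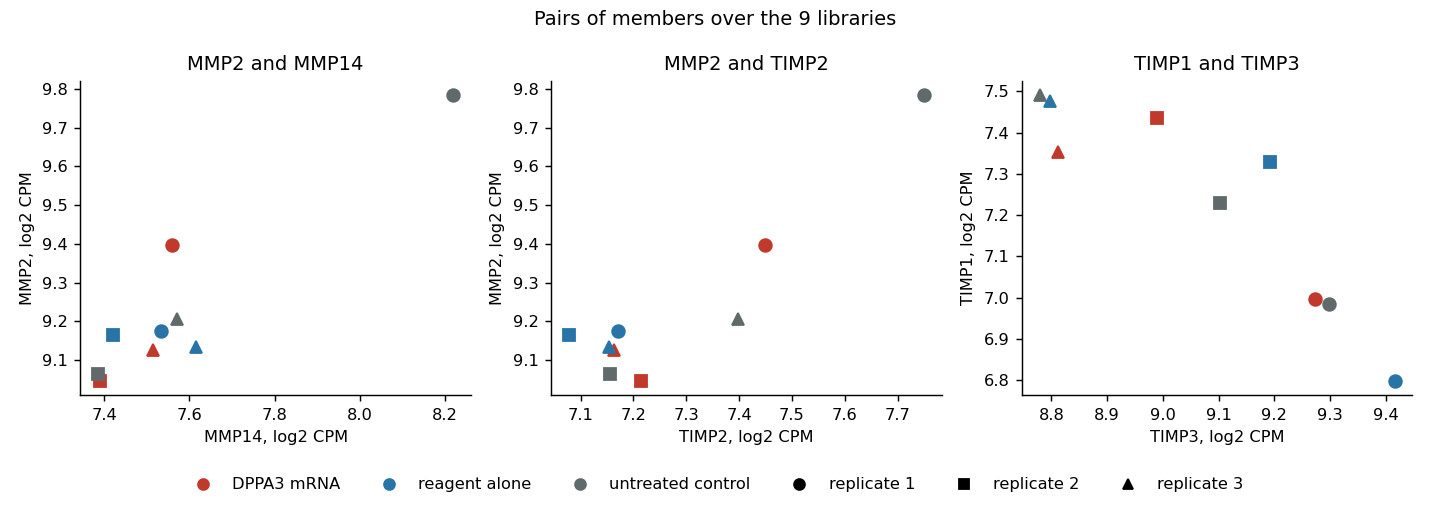
Log2 CPM of pairs of members over the 9 libraries, 1 point per library, with colour for the group and symbol for the replicate number. TIMP1 declines as TIMP3 increases, with libraries of the same number close together (r = -0.904), whereas untreated control replicate 1 lies far from the other 8 libraries in the MMP2 plots.

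The 3 tested genes outside the members whose log2 CPM was most like that of each member over the 9 libraries were found by Pearson r. For MMP2 they were DIDO1 (0.988), RTN4 (0.986) and FLNA (0.986), for MMP14 RRP1 (0.992), MAP2K2 (0.987) and AP5Z1 (0.986), and for TIMP2 ATXN1 (0.991), CCDC86 (0.983) and SPEG (0.983). Without untreated control replicate 1 these values were 0.948 to 0.964 for MMP2, 0.862 to 0.921 for MMP14 and 0.950 to 0.973 for TIMP2. For TIMP1 they were GRK5 (0.979), CAMKV (0.979) and PAAF1 (0.968). For TIMP3 they were LOC104973117 (0.967), RAP2B (0.967) and TRIM2 (0.963). ADAMTS1 was most like ITPRIPL2 (0.971), PKD2 (0.948) and EMC3 (0.935), and MMP19 was most like LOC112444901 (0.951), VWA2 (0.945) and ARRB1 (0.943). Leaving out untreated control replicate 1 gave 0.970 to 0.983 for TIMP1 and 0.958 to 0.983 for TIMP3. For ADAMTS1 and MMP19 it gave 0.936 to 0.9705 and 0.944 to 0.952. All these genes were picked for the highest r among all tested genes over only 9 libraries. High values come in part from that search, and co-regulation was not tested.

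Of the wider lists of matrix proteases, inhibitors, activators, inducers and substrates, 0 genes passed by edgeR in the 3 comparisons. Of 18 other MMP symbols, 14 were in the table and 7 were tested, and 0 were called in each of the 3 comparisons. Their median log2 fold change was 0.02 with DPPA3 mRNA over reagent alone, -0.35 over untreated control, and -0.55 for reagent alone over untreated control. Against untreated control 7 of 7 were lower on average with DPPA3 mRNA, but 3 of 7, with a median of 0.02, without untreated control replicate 1. For reagent alone over untreated control the median was -0.16 without that library. MMP24, a membrane-bound MMP, had the smallest p of the list against reagent alone, at 21.8 ± 3.89 CPM after DPPA3 mRNA and 16.1 ± 2.92 CPM after reagent alone (SD, n = 3 each, log2 fold change 0.45, SE 0.27, edgeR adjusted p = 1).

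MMP28, a secreted MMP also called epilysin, was singled out after its values were seen. It measured 20.8 ± 2.39 CPM after DPPA3 mRNA, 20.4 ± 0.763 CPM after reagent alone and 31.0 ± 2.39 CPM in untreated controls (SD, n = 3 each). The DPPA3 mRNA libraries, at 18.4 to 23.2 CPM, and the reagent alone libraries, at 19.7 to 21.2 CPM, all lay below the untreated ones, at 29.2 to 33.7 CPM. Of all tested genes 3.86% lay below in this way with DPPA3 mRNA and 7.21% with reagent alone. The log2 fold change over untreated control was -0.58 (SE 0.19, edgeR adjusted p = 0.852) with DPPA3 mRNA and -0.60 (SE 0.19, edgeR adjusted p = 0.466) with reagent alone, so neither passed. Without untreated control replicate 1 these values were -0.59 and -0.61. The 2 comparisons share the control libraries.

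Of 18 other ADAMTS genes 10 were tested, of 11 ADAM genes 8 were, and 0 were called in any comparison. ADAMTS14, which trims procollagen, measured 11.3 ± 2.78 CPM after DPPA3 mRNA and 7.67 ± 1.18 CPM after reagent alone (SD, n = 3 each, log2 fold change 0.53, SE 0.28). ADAMTS15, singled out after its values were seen, measured 170 ± 21.6 CPM after DPPA3 mRNA, 161 ± 30.6 CPM after reagent alone and 251 ± 58.1 CPM in untreated controls. Its log2 fold change over untreated control was -0.56 with DPPA3 mRNA and -0.64 in the reagent alone group, and -0.41 and -0.49 without untreated control replicate 1. ADAM9, a membrane-bound protease, measured 373 ± 7.62 CPM after DPPA3 mRNA, 434 ± 47.1 CPM after reagent alone and 338 ± 57.1 CPM in untreated controls. Its 3 transfected libraries lay below the 3 reagent alone libraries, as did those of 3.99% of all tested genes (log2 fold change -0.22, SE 0.15, edgeR adjusted p = 1). ADAM10, a membrane sheddase, measured 89.4 ± 20.3 CPM after DPPA3 mRNA, 112 ± 14.4 CPM after reagent alone and 73.3 ± 27.3 CPM in untreated controls.

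Other inhibitors were tested in 7 of 10 cases, the plasminogen system and activating proteases in 14 of 19, inducers and transcription factors of MMP genes in 22 of 27, and matrix substrates in 19 of 20. In each of these lists 0 members were called in the 3 comparisons. SPOCK2, a secreted proteoglycan, had the smallest p of the genes listed as other inhibitors, and whether it inhibits these proteases was not tested. It was at 980.2 ± 149 CPM after DPPA3 mRNA and 880.1 ± 4.18 CPM after reagent alone (SD, n = 3 each, log2 fold change 0.16, SE 0.15, edgeR adjusted p = 1). TFPI2, a serine protease inhibitor of the matrix, was at 210 ± 51.6 CPM and 236 ± 10.9 CPM in these 2 groups. Among the inducers 19 of 22 had the higher mean after DPPA3 mRNA than in the reagent alone group, as against 50.4% of all tested genes, with a median log2 fold change of 0.08. Relative to untreated control 6 of 22 were higher after DPPA3 mRNA, with a median of -0.09, and 4 of 22 after reagent alone, with a median of -0.25. Without untreated control replicate 1 these were 15 of 22 and 11 of 22, with medians of 0.10 and -0.0057. TGFB2, a growth factor of the TGF-beta family, was at 62.9 ± 4.24 CPM after DPPA3 mRNA and 49.6 ± 4.61 CPM after reagent alone (SD, n = 3 each, log2 fold change 0.34, SE 0.19, edgeR adjusted p = 1). All 3 of its transfected libraries lay above the reagent alone ones, as did those of 4.91% of all tested genes. FOS, a part of the AP-1 factor that binds many MMP promoters, was at 44.5 ± 16.6 CPM and 35.3 ± 6.56 CPM in these 2 groups. PLAT, which activates plasminogen, was at 79.4 ± 4.26 CPM after DPPA3 mRNA and 94.7 ± 17.6 CPM after reagent alone. TIMP4, the remaining TIMP, had 0 counts in the transfected libraries, 0 in the reagent alone libraries and 1 in the untreated controls. Among other genes of the series, 17 of 17 tested interferon-stimulated genes were higher on average after DPPA3 mRNA than in the reagent alone group, with a median log2 fold change of 3.22, though 0 of 17 passed by edgeR. The share higher over all tested genes was 50.4%, and 15 of 17 had an unadjusted p under 0.05, as against 1.67%. Their levels varied widely within the transfected group, with MX1 at 27.9 to 669 CPM and IFI6 at 21.3 to 461 CPM.

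The replicate number, by contrast, separated several substrates and inhibitors. Of the matrix substrates 4 of 19 passed the test of the number and of the other inhibitors 2 of 7, as against 1.47% of all tested genes. In the other MMP, ADAMTS and ADAM lists and among the inducers 0 passed. The libraries numbered 1, 2 and 3 averaged -1.49, 0.56 and 0.92 from their group means in log2 CPM for NID1, a basement membrane linker (edgeR adjusted p = 3.61e-05), and -0.995, 0.30 and 0.69 for A2M, a protease trap (7.6e-05). FN1, fibronectin, had the same direction as NID1, A2M and TIMP1, at -0.32, 0.12 and 0.20 (edgeR adjusted p = 0.00997). TNC, THBS1 and ELN were high at number 1 and low at number 3, as TIMP3 was, with edgeR adjusted p of 0.00482, 0.00676 and 0.00396. NID1 and A2M kept an edgeR adjusted p of 0.00184 and 0.00185 or less when any 1 library was left out, whereas TNC, THBS1, ELN and FN1 each lost the call in at least 1 such fit. The highest adjusted p was then 0.067, 0.0705, 0.0654 and 0.0935.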

How the data were processed

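The values used are unnormalised read counts by gene symbol, as deposited by the authors. Trimmomatic, HISAT2, HTSeq and edgeR are named, without roles or versions, in the submitters' processing notes. For build, annotation and strand setting, nothing is given in the sources used here. Coordinates are therefore left out, and without transcript lengths levels are not compared between genes. Per the labels' protocols, RNA came from a TRIzol extraction and libraries from an xGen RNA kit of IDT.

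Counts were filtered with filterByExpr, scaled with TMM factors and tested with edgeR 4.0.16 (glmQLFit, glmQLFTest) in R 4.3.3 over the 9 libraries, with group as the only term, or with group and replicate number for the test of the number. Calls needed a Benjamini-Hochberg adjusted p under 0.05 over 14874 genes. Standard errors are the log2 fold change over the root of the F statistic, and intervals use the moderated degrees of freedom. Log2 CPM used a prior count of 2. DESeq2 1.42.0 was an alternative. The fits were tried on simulated data with changes larger than those of the members and no outlying library. Whether changes of the members' size would be found was not tested. Total counts per library were 3890134 to 13258036. Replicates differed by more than sampling noise (chi-square per degree of freedom at least 13.7). RefSeq (ARS-UCD2.0) matched 24552 of 30641 symbols and served for gene order and overlaps.

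The members, lists and tests were chosen with earlier results of these data known. The text names the 10 members, DPPA3, up to 3 genes of each wider list by smallest p against reagent alone, list genes called (1 result is not reported here), the 3 genes most like each member, and genes named as chosen after their values were seen. Deviations of equal numbers correlated at 0.34, 0.32 and 0.12 between DPPA3 mRNA and untreated control, all over the limit of 0.1 used here. That was read as a possible pairing of those 2 groups, which the labels do not state. The main tests have no term for it, and the replicate block, which has, changed no call of a member. The correlations were 0.14, 0.12 and 0.086 between DPPA3 mRNA and reagent alone and 0.15, 0.14 and 0.093 between reagent alone and untreated control, which do not meet that limit for every number. By their lowest values, 0.12 against 0.086 and 0.093, the limit separates the comparisons only narrowly.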

Additional observations from a re-analysis of the deposited data

How the results depend on the processing

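All 315 recomputed log2 fold changes of the 7 tested members stayed uncalled, none over 0.448 in size, and 288 kept their sign. The members called were 0 in the 3 comparisons under each alternative. Genes called for DPPA3 mRNA against reagent alone, DPPA3 mRNA against untreated control and reagent alone against untreated control were 66, 69 and 18 with no filter and 9, 10 and 2 with DESeq2. The first 2 counts were 2 and 7 with the replicate block, which changed no call of a member, and 0 and 0 with DPPA3 left out of the table, which takes that gene out of the test, while why the other gene of the second count was lost was not tested. When 1 library at a time was left out, the 3 counts ranged over 1 to 20, 1 to 26 and 0 to 1. The test of the replicate number called 1615 genes and 3 members with no filter, 1060 genes and 3 members with DESeq2, and 35 to 960 genes and 0 to 3 members without single libraries. The cause was not tested. The 35 came without DPPA3 mRNA replicate 1 and the 960 without reagent alone replicate 1.

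The signs that changed did so when single libraries were left out. Against reagent alone the log2 fold changes then ranged from -0.0746 to 0.11 for MMP2, -0.0858 to 0.0128 for MMP14, -0.0649 to 0.13 for MMP19, -0.13 to 0.18 for TIMP1, -0.27 to 0.0293 for TIMP3, -0.20 to 0.0939 for ADAMTS1, -0.21 to 0.0054 for SERPINE2 and -0.33 to 0.0786 for PCSK6. For DPPA3 mRNA against untreated control they ranged from -0.32 to 0.067 for MMP2, -0.44 to 0.0153 for MMP14, -0.085 to 0.16 for TIMP1, -0.30 to 0.0052 for TIMP2, -0.17 to 0.0938 for TIMP3 and -0.0494 to 0.29 for ADAMTS1. For reagent alone against untreated control they ranged from -0.36 to 0.0314 for MMP2, -0.40 to 0.0562 for MMP14, -0.16 to 0.16 for TIMP1 and -0.0645 to 0.23 for TIMP3. Depth limits MMP1, MMP3 and MMP9, which had too few counts to pass the filter.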
